A study of Drosophila melanogaster with 8 samples.

Results

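Atg8 and the enzymes that process and attach it were followed as mRNA through larval starvation and in starved CPSF5 mutants. The 10 genes were Atg8a, Atg8b, Atg7, Atg3, Atg4a, Atg4b, Atg5, Atg10, Atg12 and Atg16, chosen by their FlyBase symbols and by no measured value, out of 17471 genes in the deposited table. All 10 were found, and 9 of them averaged at least 1 scaled TPM over the libraries and were tested; Atg8b lay below that level.

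Atg8 is a small ubiquitin-like protein that autophagy attaches to the lipid phosphatidylethanolamine on the growing autophagosome membrane. Atg4 proteases trim its C-terminus and can later free it from membranes, Atg7 activates it as an E1-like enzyme, and Atg3 passes it to the lipid as an E2-like enzyme. The same Atg7, together with the E2-like enzyme Atg10, joins the second ubiquitin-like protein, Atg12, to Atg5, and the Atg12-Atg5 conjugate with Atg16 promotes the last step of Atg8 lipidation. In the larval fat body of the fly, the organ that stores nutrients, starvation and the end of larval life are both known to start autophagy.

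RNA of larval fat body from Drosophila melanogaster was sequenced in 8 libraries, 2 in each of 4 groups. The wild-type groups were OreR, fed or kept without food for 4 h or 16 h, and the mutant group was CPSF5H11/CPSF5H11, homozygous for a mutant allele of the pre-mRNA cleavage factor gene Cpsf5, and likewise without food for 16 h. The ages of the larvae, how many were pooled and the lesion in the allele were not given in the sources used here. A difference of starved from fed wild type therefore cannot be told apart from one of larval stage. Fed mutants were not analysed here. A difference of the starved mutant from the wild type thus cannot be told apart from one already present before starvation. The labels do not say that the 2 libraries of a group came from separate animals. Every p-value therefore sets a difference against a spread between libraries, which may be technical. That spread was pooled over all 4 groups and drawn towards that of other genes. The Spearman correlation between the 2 libraries of a group was 0.949 in fed larvae, 0.878 after 4 h, 0.839 after 16 h and 0.918 in the mutant.

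The values are TPM (a length-adjusted share of all transcripts), divided here by 1 median-of-ratios factor per library and called scaled TPM; being length-adjusted, they can be compared between genes. The factors ran from 0.537 to 1.52, and ribosomal RNA took 48.8% and 31.1% of the TPM in the 16 h wild-type libraries and between 4.58% and 14.0% in the other 6. Without that division the median gene lay at a log2 fold change of -0.53 after 4 h and -0.82 after 16 h against fed, and at 0.77 in the mutant against wild type after 16 h, while with it the median lay between -0.03 and 0.09 in these comparisons. Cpsf5 itself stood at 11.98 and 10.9 scaled TPM in fed larvae, 6.47 and 3.62 after 4 h, 5.06 and 4.20 after 16 h, and 3.598 and 3.01 in the mutant. The 10 fat body markers summed to 18803 to 93301 scaled TPM in the 6 wild-type libraries and to 3537 and 2748 in the mutant ones. In the mutant against wild type after 16 h, 5 of the 10 fell and 3 rose, where 12.1% and 21.4% of all genes did. The lipoprotein gene apolpp was high in all 8 libraries, at 1159 to 2335. The storage protein gene Lsp2 stood at 2373 and 5703 in fed larvae, 13545 to 24705 in starved wild type, and 8.64 and 16.7 in the mutant. Lsp1gamma stood at 0.065 and 0.069 in wild type after 16 h and at 132 and 204 in the mutant.

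Markers of other tissues also moved with the groups. The 9 salivary gland markers summed to 596 and 1828 scaled TPM in fed larvae, 22315 and 23882 after 4 h, 13583 and 39415 after 16 h, and 1210 and 210.3 in the mutant. In the fed and mutant libraries most of the sum came from ng1 and ng2. These 2 passed neither at 4 h or 16 h against fed nor in the mutant against wild type. For example, ng1 stood at 339 and 1218 in fed larvae, 343 and 38.3 after 4 h, 489 and 596 after 16 h, and 785 and 127 in the mutant. The other 7, which are 6 glue protein genes and Eig71Ee, rose at both times and fell in the mutant against wild type, where Sgs1 stood at 0 and 0.0187. The 10 muscle markers summed to 109 to 162 in fed larvae, 15.8 to 35.5 in starved wild type and 55.005 to 89.8 in the mutant. The 8 midgut markers summed to 98.6 and 169 in fed larvae, 0.308 to 5.43 in starved wild type, and 50.2 and 329.8 in the mutant. The 6 hemocyte markers summed to 10.4 and 11.4 in fed larvae, 29.1 and 30.2 after 4 h, 20.9 and 23.1 after 16 h, and 27.9 and 27.4 in the mutant, and He, Pxn and srp rose after 4 h. The 4 neuron markers summed to 10.2 and 13.05 in fed larvae, 45.9 and 64.4 after 4 h, 29.7 and 27.2 after 16 h, and 11.6 and 9.13 in the mutant; Syt1 made up most of each sum, rose at both times and fell in the mutant against wild type, and brp stood at 0.391 or less in every library. The part of these tissues in the results below was not tested, and in bulk RNA fewer cells of a type and less RNA per cell cannot be told apart.

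In wild type after 4 h of starvation, 5 of the 9 tested genes rose against fed: Atg8a, Atg7, Atg3, Atg4a and Atg5. Atg16 fell, and Atg4b, Atg10 and Atg12 did not pass the test. Each gene was tested with limma on log2(scaled TPM + 1) over 8332 genes at a Benjamini-Hochberg adjusted p under 0.05. Of all genes tested, 21.1% rose and 26.6% fell in that comparison, and the median log2 fold change was 1.11 for the 9 genes and -0.03 for all genes. After 16 h, 4 of the 9 had risen against fed (Atg8a, Atg7, Atg4a and Atg5) and Atg16 had fallen, beside 21.6% and 27.7% of all genes. The median of the 9 was then 0.70, and that of all genes 0.01. These comparisons share the fed libraries. Between 4 h and 16 h none of the 9 passed (limma, 0 also at an unadjusted p under 0.05), beside 0.036% of all genes, which was 3 genes, nor did any of their transcripts, beside 0.00316% of all transcripts.

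In the mutant after 16 h, Atg7 and Atg5 stood lower than in starved wild type and Atg4a higher, so that 2 of the 9 fell and 1 rose, where 12.1% of all genes fell and 21.4% rose. Atg8a did not pass. The median of the 9 was 0.04, and that of all genes 0.09. Against fed wild type, 4 of the 9 were higher in the starved mutant (Atg8a, Atg4a, Atg7 and Atg5) and none fell, beside 23.0% and 22.4% of all genes.

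**Figure D1:**
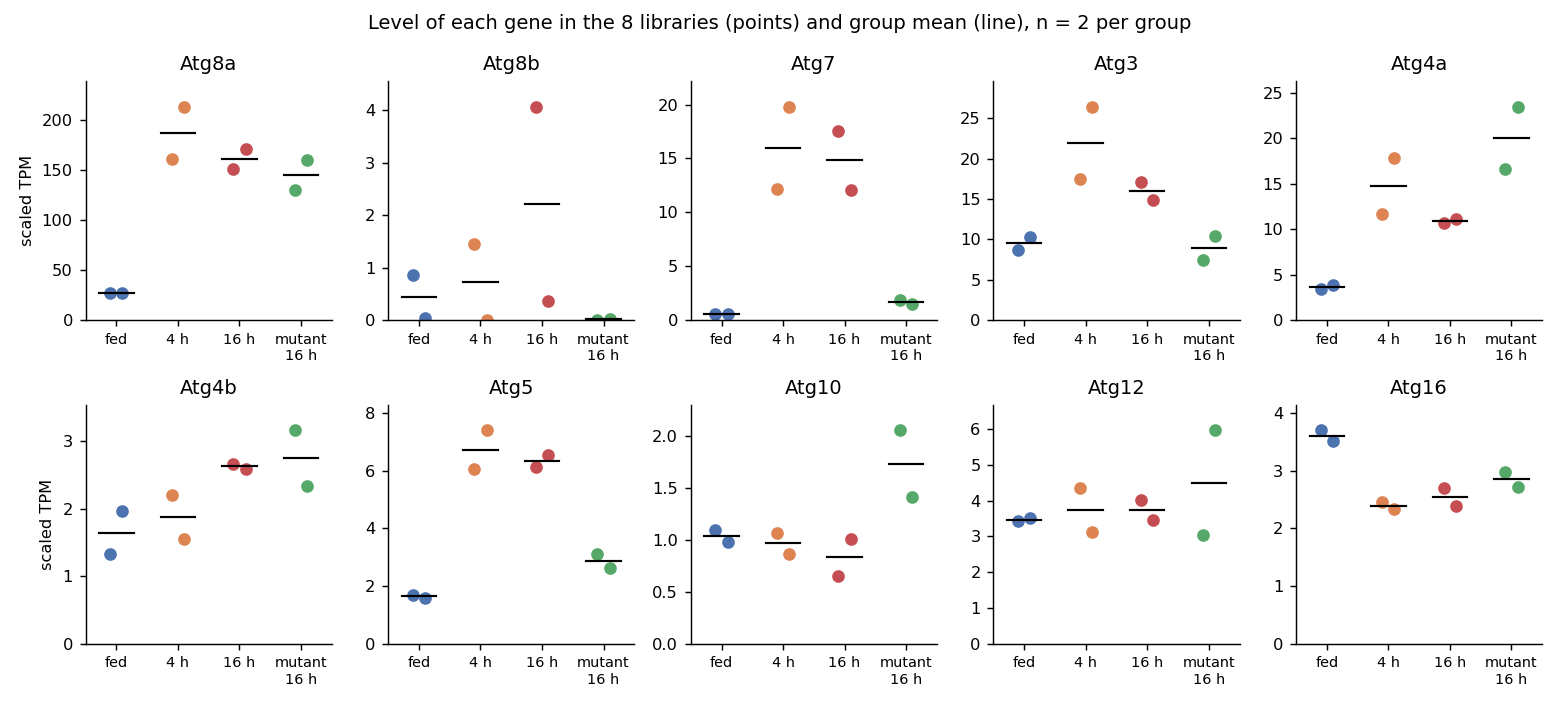
Scaled TPM (vertical axis, linear, from 0 in each panel) of the 10 genes in the 8 libraries (points) with group means (lines). Atg8a, Atg7, Atg3, Atg4a and Atg5 lie higher in every 4 h library than in both fed libraries, and in the mutant Atg7 stands at 1.90 and 1.53 and Atg8a at 131 and 160.0.

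Atg8a (FBgn0052672; BDGP6, chromosome X, 10764878 to 10768338, minus strand) encodes the main somatic Atg8 of the fly. Its level was 27.4 scaled TPM in both fed libraries, 162 and 214 after 4 h, 151 and 171 after 16 h, and 131 and 160.0 in the mutant. All 6 starved libraries lay above both fed ones, and the 16 h wild-type range overlapped with the 4 h and the mutant ranges, while both 4 h libraries lay above both mutant ones. The group means were 6.84 times the fed mean after 4 h and 5.87 times after 16 h (log2 fold change 2.72 ± 0.23 and 2.51 ± 0.23, SE, n = 2 per group, limma adjusted p = 0.000283 and 0.000392). In the mutant the mean was 5.30 times the fed one (2.36 ± 0.23, adjusted p = 0.000665). Against wild type after 16 h the difference was -0.15, with a 95% interval of -0.71 to 0.41 (adjusted p = 0.647), which does not show that the levels were equal; without scaling it was 0.75 (adjusted p = 0.0992), where the median gene lay at 0.77. Among 13882 protein-coding genes Atg8a ranked 1171 in fed larvae, 237 after 4 h, 230 after 16 h and 311 in the mutant.

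The annotation holds 3 Atg8a transcripts that share their last 2 exons and their 3′ UTR of 580 nt and differ in where they start, which gives coding regions of 121, 96 and 107 codons for Atg8a-RA, Atg8a-RB and Atg8a-RC. Atg8a-RA, with 358 nt of exon of its own, made up 95.3% and 98.3% of the TPM of Atg8a in fed larvae, 95.8% and 98.4% after 4 h, 92.3% and 91.3% after 16 h, and 93.0% and 93.2% in the mutant. The 2 libraries after 16 h had the lowest shares, below every fed and 4 h library. No change in this share passed the test of isoform against other isoforms (16 h against fed, log2 ratio -0.81 ± 0.44, limma adjusted p = 0.250, beside 19.3% of all isoform shares that rose or fell, and -0.50 ± 0.44 in the mutant against fed, adjusted p = 0.460, beside 20.1%). The minor transcripts, examined after their values were seen, rose as levels. Atg8a-RB stood at 0.930 and 0.173 scaled TPM in fed larvae, 5.04 and 1.247 after 4 h, 9.07 and 11.2 after 16 h, and 5.95 and 7.50 in the mutant. Its rise passed after 16 h (log2 fold change 2.88 ± 0.50, adjusted p = 0.0157) and in the mutant against fed (2.35 ± 0.50, adjusted p = 0.0289), beside 13.2% and 15.2% of all transcripts that rose or fell, and each call held in 6 of 13 alternatives. Without fed library 2, for example, the adjusted p was 0.107 and 0.169, and without fed library 1 it was 0.0643 and 0.0890. Atg8a-RC stood at 0.291 to 0.356 in fed larvae, 1.70 to 2.27 after 4 h, 2.54 to 3.66 after 16 h and 3.24 to 3.45 in the mutant. It passed in all 3 comparisons with fed, with log2 fold changes of 1.17, 1.62 and 1.72 and adjusted p of 0.0174, 0.00551 and 0.00508 (12.4% of all transcripts rose or fell after 4 h). At 4 h that call was lost without either fed library (0.0954 and 0.101) or 4 h library 2 (0.0583).

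Atg7 (FBgn0034366; chromosome 2R, 18620466 to 18625044, minus strand), which activates both Atg8 and Atg12, had the largest ratio between group means of the 9 tested genes. It was listed at 0.548 and 0.552 scaled TPM in fed larvae, 12.1 and 19.8 after 4 h, 17.6 and 12.1 after 16 h, and 1.90 and 1.53 in the mutant. The 4 starved wild-type libraries lay at least 12.1, far above the other 4, and the mutant libraries lay between the fed and the starved wild-type ones with no overlap. The ratio of group means was 29.0 after 4 h and 27.0 after 16 h against fed, while the log2 fold changes, which the added 1 scaled TPM shrinks for a gene this low in fed larvae, were 3.41 ± 0.27 and 3.33 ± 0.27 (limma adjusted p = 0.00022 and 0.00025). Wild type after 16 h averaged 8.66 times the mutant (-2.53 ± 0.27 in the mutant, adjusted p = 0.00181). These 3 calls held under all 13 alternatives. The mutant's excess over fed (0.80 ± 0.27, adjusted p = 0.0491) was lost without any 1 of the 4 libraries compared (adjusted p 0.112 to 0.191).

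Atg7-RA, the transcript for the full protein of 684 codons, made up 92.9% to 100% of the gene in every library, so that the gene's change was carried by 1 transcript. CG5335 lies within an Atg7 intron on the opposite strand and shares no exonic base with it. It read 4.90 and 6.16 scaled TPM in fed larvae, 9.72 and 9.25 after 4 h, 5.98 and 8.39 after 16 h, and 4.23 and 6.60 in the mutant, a far narrower range than that of Atg7. Of the fat body markers, Fbp1, Fbp2 and Lsp2 also stood higher in all 4 starved wild-type libraries than in fed and mutant ones, while the others did not. The 7 salivary gland markers other than ng1 and ng2 did so too. In the mutant against fed, where Atg7 passed in the main setting, 0 of the 9 salivary gland markers rose. In the 4 h pair Atg7 and the salivary gland marker sum were both higher in library 2. In the 16 h wild-type pair Atg7 was higher in library 1, as were Sgs1, Sgs3 and Sgs4, while Sgs5, Sgs7, Sgs8 and Eig71Ee were higher in library 2. The part of salivary gland RNA in the Atg7 values was not tested.

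Atg3 (FBgn0036813; chromosome 3L, 18748687 to 18750483, plus strand) hands Atg8 to the lipid. Its level was 8.73 and 10.3 scaled TPM in fed larvae, 17.5 and 26.5 after 4 h, 17.1 and 14.9 after 16 h, and 7.42 and 10.4 in the mutant. Fed and mutant libraries overlapped, and all 4 starved wild-type libraries lay above both. The rise after 4 h passed (1.11 ± 0.25, limma adjusted p = 0.0133) in the main setting and 9 of 13 alternatives; without fed library 1 the adjusted p was 0.0836, and without 4 h library 2 it was 0.0506. At 16 h the difference from fed was 0.70 ± 0.25 (adjusted p = 0.0636) and that of the mutant from wild type was -0.79 ± 0.25 (adjusted p = 0.0571), neither of which passed. Both of these passed when either 4 h library was left out (adjusted p 0.0354 and 0.0364 for the first, 0.0333 and 0.0343 for the second). The mutant differed from fed by -0.10, with a 95% interval of -0.72 to 0.52.

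**Figure D2:**
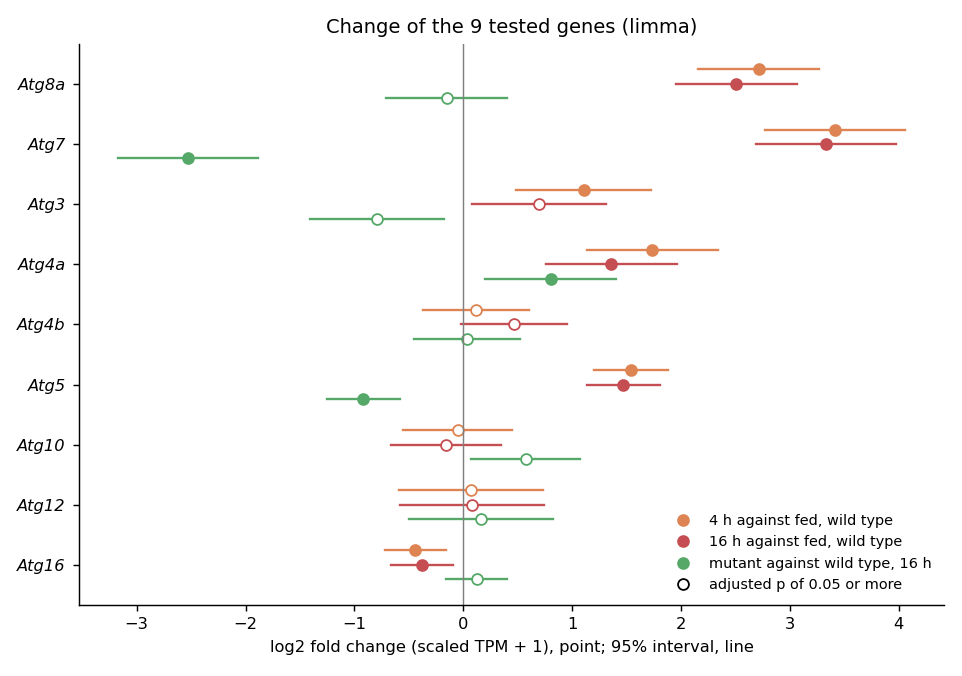
Log2 fold changes of scaled TPM + 1 (points) with 95% intervals (lines) for the 9 tested genes in 3 comparisons; filled points have an adjusted p under 0.05. Atg7 and Atg5 lie right of 0 in both starvation comparisons and left of 0 in the mutant, at -2.53 and -0.92, while Atg4a lies right of 0 in all 3.

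The Atg4 proteases differed from each other. Atg4a (FBgn0031298; chromosome 2L, 1080911 to 1085380, plus strand) had levels of 3.46 and 3.81 scaled TPM in fed larvae, 11.6 and 17.8 after 4 h, 10.7 and 11.1 after 16 h, and 16.6 and 23.5 in the mutant. Both mutant libraries lay above both 16 h wild-type libraries and overlapped with the 4 h ones. It rose after 4 h (1.73 ± 0.25, limma adjusted p = 0.00205), after 16 h (1.36 ± 0.25, adjusted p = 0.00527) and in the mutant against fed (2.16 ± 0.25, adjusted p = 0.00117). Its excess in the mutant over wild type after 16 h, 0.80 ± 0.25, passed only just (adjusted p = 0.04997) and passed in 4 of 13 alternatives. It was lost without any 1 of the 6 fed, 16 h or mutant libraries, with adjusted p from 0.0570 to 0.207. The 16 h rise over fed was lost without scaling (0.38, adjusted p = 0.281). Atg4b (FBgn0038325; chromosome 3R, 15353720 to 15356924, minus strand) stood at 1.33 and 1.96 in fed larvae, 2.21 and 1.55 after 4 h, 2.67 and 2.59 after 16 h, and 3.16 and 2.33 in the mutant. It passed in no comparison, and its differences from fed were 0.12 after 4 h, 0.47 after 16 h and 0.50 in the mutant, with 95% intervals of -0.37 to 0.61, -0.02 to 0.95 and 0.02 to 0.99. Its 3′ end shares 207 exonic bases with Tmtc4 on the opposite strand, which stood at 0.267 to 0.693 in all libraries.

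Atg4a has 2 annotated transcripts that share the start and differ mainly at the 3′ end: Atg4a-RA ends with a 3′ UTR of 507 nt, and Atg4a-RB with one of 2509 nt. Cpsf5 encodes a subunit of the factor that takes part in the choice of polyadenylation sites. Atg4a-RB stood at 0.129 and 0.123 scaled TPM in fed larvae, 0.233 and 0.143 after 4 h, 0.168 and 0.602 after 16 h, and 2.13 and 2.91 in the mutant. Both mutant libraries lay above all 6 wild-type ones. As a share of the gene it was 3.48% ± 0.36 (SD, n = 2) in fed larvae, 1.40% ± 0.85 after 4 h, 3.502% ± 2.72 after 16 h and 12.6% ± 0.29 in the mutant. The planned share test adds 1 TPM to both parts of the ratio. Where Atg4a-RB is well under 1 TPM, as in wild type, that ratio mostly follows Atg4a-RA. For the mutant against wild type after 16 h, where both transcripts stood higher in the mutant, it gave 0.17 ± 0.21. This did not pass (limma adjusted p = 0.628, beside 19.6% of all isoform shares that rose or fell). With 0.1 TPM added the difference was 1.63 (adjusted p = 0.113). A test of the transcript's level, chosen after these values were seen, gave a rise of 1.35 ± 0.23 (adjusted p = 0.0188, beside 12.7% of all transcripts), which was lost without either fed library (0.0556 and 0.0551), 16 h library 1 (0.0679) or mutant library 2 (0.0552). The main isoform, Atg4a-RA, stood at 10.5 in both 16 h wild-type libraries and 14.5 and 20.6 in the mutant. In the same test after 4 h against fed, the log2 ratio of Atg4a-RA to Atg4a-RB passed (1.21 ± 0.23, adjusted p = 0.0188, and -1.21 ± 0.21, adjusted p = 0.0154, for its inverse), beside 17.8% of all isoform shares. With Atg4a-RB at 0.123 to 0.233 in these 4 libraries and 1 TPM added, that ratio follows the level of Atg4a-RA, and no change of share is read from it. Both calls were lost with 0.1 TPM added (0.206 and 0.204) and without either fed library or 4 h library 2 (0.0622 to 0.0937).

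The long Atg4a 3′ UTR lies over CG4629, a gene on the opposite strand that shares 2098 exonic bases with Atg4a. CG4629 stood at 0.152 and 0.328 scaled TPM in fed larvae, 0.731 and 0.353 after 4 h, 0.522 and 0.275 after 16 h, and 1.13 and 1.61 in the mutant, highest in the same 2 libraries as Atg4a-RB. Whether the counting used strand is not given in the sources used here, and without it reads of the 2 genes cannot be told apart there.

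**Figure D3:**
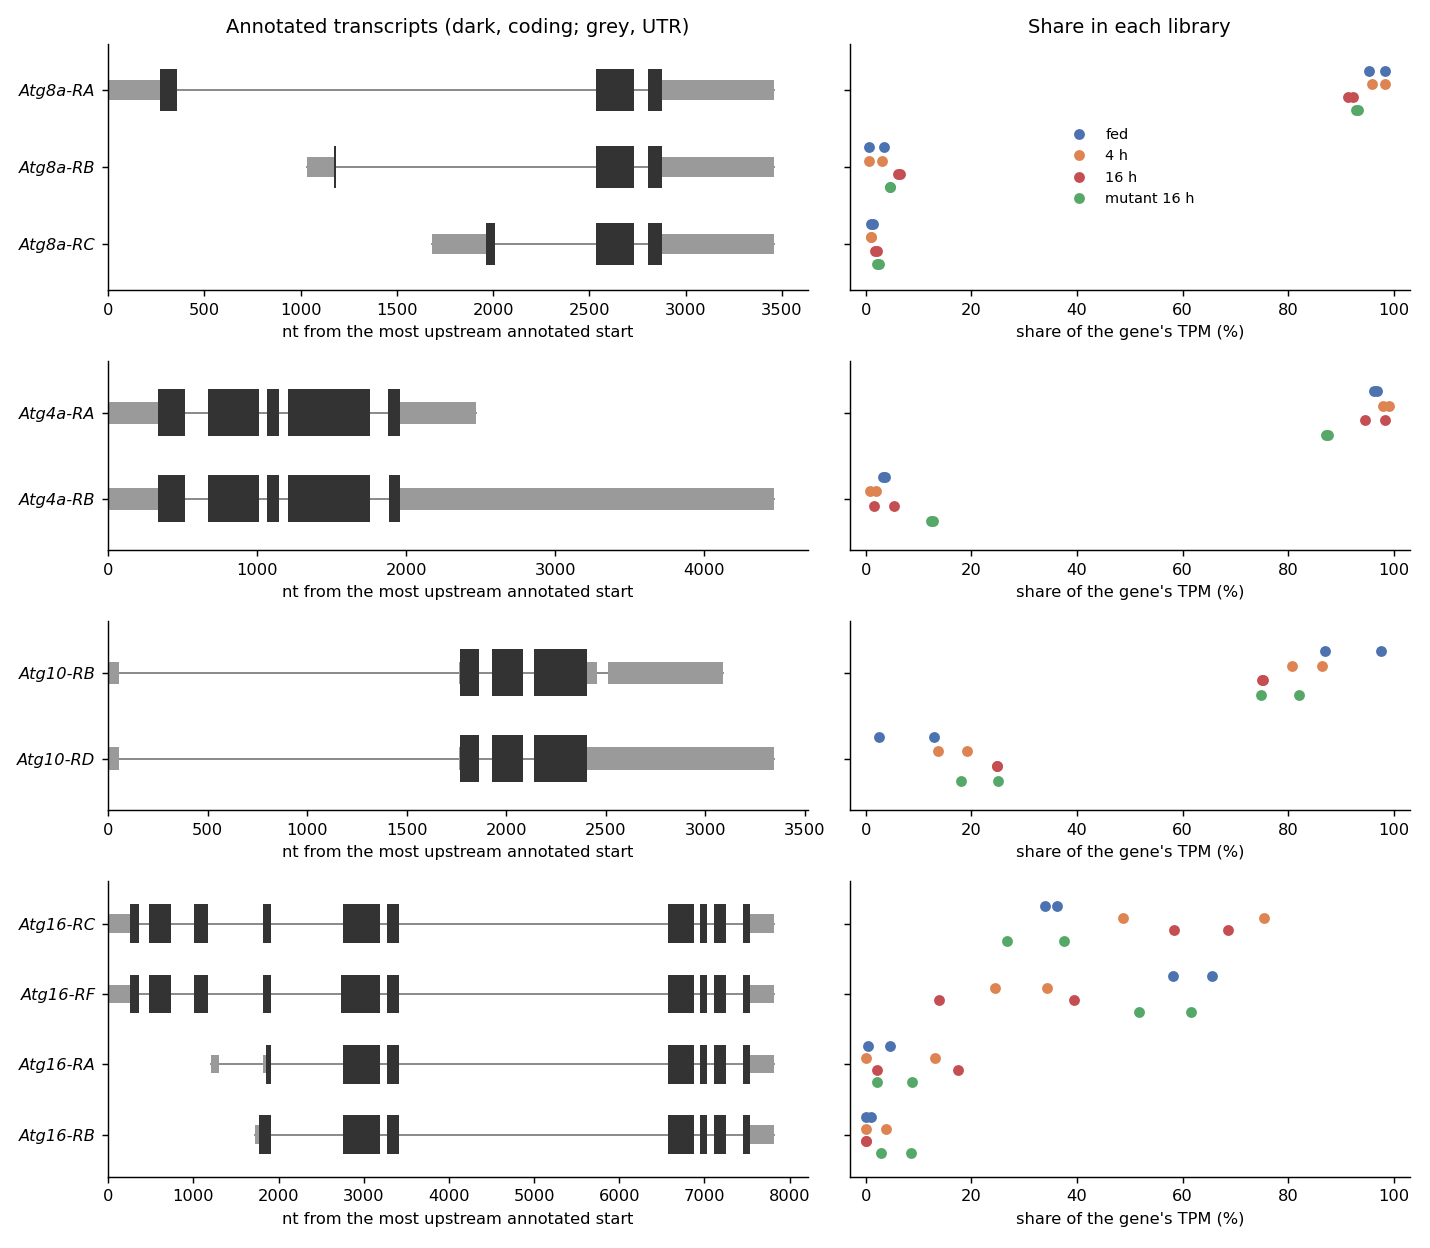
Left, annotated transcripts of Atg8a, Atg4a, Atg10 and Atg16 along nt from the most upstream start (dark, coding exons; grey, UTR). Right, the share of the gene's TPM (%) each transcript held in the 8 libraries; the long-UTR transcript Atg4a-RB holds 12.8% and 12.4% in the mutant libraries and at most 5.42% in the others.

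Atg5 (FBgn0029943; chromosome X, 7314622 to 7323770, minus strand) receives Atg12 and forms the core of the complex that promotes Atg8 lipidation. It stood at 1.70 and 1.59 scaled TPM in fed larvae, 6.06 and 7.396 after 4 h, 6.11 and 6.539 after 16 h, and 3.13 and 2.63 in the mutant. As for Atg7, the mutant libraries lay between the fed and the starved wild-type ones without overlap. Atg5 rose after 4 h (1.54 ± 0.14, limma adjusted p = 0.000354) and after 16 h (1.47 ± 0.14, adjusted p = 0.000435), and fell in the mutant against wild type after 16 h (-0.92 ± 0.14, adjusted p = 0.00503). The last was -0.19 without scaling (adjusted p = 0.525), where the median gene lay at 0.77; the 16 h rise was then 0.60 (adjusted p = 0.0647), beside a median gene at -0.82. The mutant stood above fed (0.55 ± 0.14, adjusted p = 0.0199), which was lost without either fed library (0.0816 and 0.113) or mutant library 1 (0.0935). Atg5 lies within the annotated spans of CG1677 and lncRNA:CR44357 on its own strand and shares no exonic base with them. CG1677 went the other way, at 9.22 and 13.6 in fed larvae and 3.34 to 3.95 in all 6 starved libraries.

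Atg12 (FBgn0036255; chromosome 3L, 12136967 to 12137559, plus strand) is the ubiquitin-like protein joined to Atg5. Its level was 3.43 and 3.51 scaled TPM in fed larvae, 4.35 and 3.11 after 4 h, 4.03 and 3.46 after 16 h, and 3.05 and 5.97 in the mutant. The groups overlapped. The differences from fed were 0.07 after 4 h (95% interval -0.59 to 0.73) and 0.08 after 16 h (-0.58 to 0.75), and they turned to -0.45 and -0.80 without scaling. Its 3′ end shares 64 exonic bases with ND-SGDH, a respiratory chain gene on the opposite strand that was much higher, at 22.6 to 114 in the 8 libraries.

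Atg10 (FBgn0040780; chromosome 2R, 7832171 to 7835518, plus strand), which passes Atg12 to Atg5, was the lowest of the tested genes in the starved wild type. It stood at 1.09 and 0.978 scaled TPM in fed larvae, 1.07 and 0.863 after 4 h, 0.655 and 1.01 after 16 h, and 2.05 and 1.41 in the mutant. Both mutant libraries lay above the other 6. The difference from wild type after 16 h was 0.57 ± 0.21 (limma adjusted p = 0.0784), which did not pass; without scaling it was 0.98 (adjusted p = 0.0237), beside a median gene at 0.77. Atg10 shares 53 exonic bases with CG12822 on its own strand and 707 with Dgk on the other. CG12822 stood at 2.59 to 4.61 in the wild type and 6.53 and 4.60 in the mutant, and Dgk at 0.588 or less in every library. Atg10-RD, which keeps an intron of the 3′ UTR and ends further downstream (940 nt against 624 nt in Atg10-RB), held 7.72% ± 7.44 of the gene in fed larvae, 16.4% ± 3.94 after 4 h, 24.8% ± 0.08 after 16 h and 21.5% ± 5.08 in the mutant. All 6 starved libraries had a larger share than both fed ones. In the test extended to genes with a mean of 1 TPM the change after 16 h was 0.79 ± 0.22 (adjusted p = 0.0750), which did not pass, for a transcript that stood at 0.516 scaled TPM or less.

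Atg16 (FBgn0039705; chromosome 3R, 29827281 to 29835101, minus strand), which brings the Atg12-Atg5 conjugate to the membrane, was the 1 tested gene of the set that fell on starvation. It stood at 3.70 and 3.51 scaled TPM in fed larvae, 2.45 and 2.34 after 4 h, 2.70 and 2.39 after 16 h, and 2.98 and 2.73 in the mutant. Both fed libraries lay above the other 6. The fall passed after 4 h (-0.44 ± 0.12, limma adjusted p = 0.0223) and after 16 h (-0.38 ± 0.12, adjusted p = 0.0361), in 8 and 6 of 13 alternatives. At 4 h it was lost without either fed library (0.122 and 0.0928) or 4 h library 2 (0.0720), and after 16 h without any 1 of the 4 libraries compared (0.0651 to 0.165). Its main transcripts, Atg16-RC and Atg16-RF, differ by 24 nt of coding exon. Atg16-RF held 58.3% and 65.5% of the gene in fed larvae, 34.3% and 24.5% after 4 h, 13.9% and 39.4% after 16 h, and 51.8% and 61.7% in the mutant. Fed and mutant shares overlapped and lay above all 4 starved wild-type shares. In the test extended to genes with a mean of 1 TPM, the log2 ratio of Atg16-RF changed by -1.11 ± 0.28 after 4 h (adjusted p = 0.0611), -1.09 ± 0.28 after 16 h (0.0588) and 0.84 ± 0.28 in the mutant against wild type (0.104), none of which passed. Atg16-RA, a shorter transcript at 0.472 scaled TPM or less, passed in that test after 16 h against fed (1.28 ± 0.29, adjusted p = 0.0412, beside 12.9% of isoform shares), although its share was 4.61% and 0.50% in fed larvae and 17.5% and 2.11% after 16 h, which overlapped. The level of Atg16-RF fell after 16 h (-0.98 ± 0.23, adjusted p = 0.0409, a test chosen after the values were seen), from 2.16 and 2.299 to 0.375 and 0.941, in 4 of 13 alternatives, and was lost without either fed library (0.169 and 0.189) or 16 h library 1 (0.115).

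A ratio to Atg8a within 1 library does not depend on the scaling of that library. Per 100 TPM of Atg8a, Atg7 stood at 1.999 and 2.01 TPM in fed larvae, 7.51 and 9.28 after 4 h, 11.7 and 7.08 after 16 h, and 1.45 and 0.956 in the mutant. The mutant values lay below even the fed ones. Atg3 stood at 31.8 and 37.5 in fed larvae, 10.8 and 12.4 after 4 h, 11.3 and 8.71 after 16 h, and 5.69 and 6.49 in the mutant. Atg4a stood at 12.6 and 13.9 in fed larvae, 6.49 to 8.34 in starved wild type, and 12.7 and 14.7 in the mutant, where it overlapped with fed. Atg5 stood at 5.82 and 6.19 in fed larvae, 3.46 to 4.05 in starved wild type and 1.64 to 2.39 in the mutant. Atg16 stood at 12.8 and 13.5 in fed larvae and between 1.10 and 2.28 in all 6 starved libraries. For Atg7, Atg3 and Atg16 the 4 h and 16 h wild-type ratios overlapped. These ratios are given as a description, and no test was run on them.

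**Figure D4:**
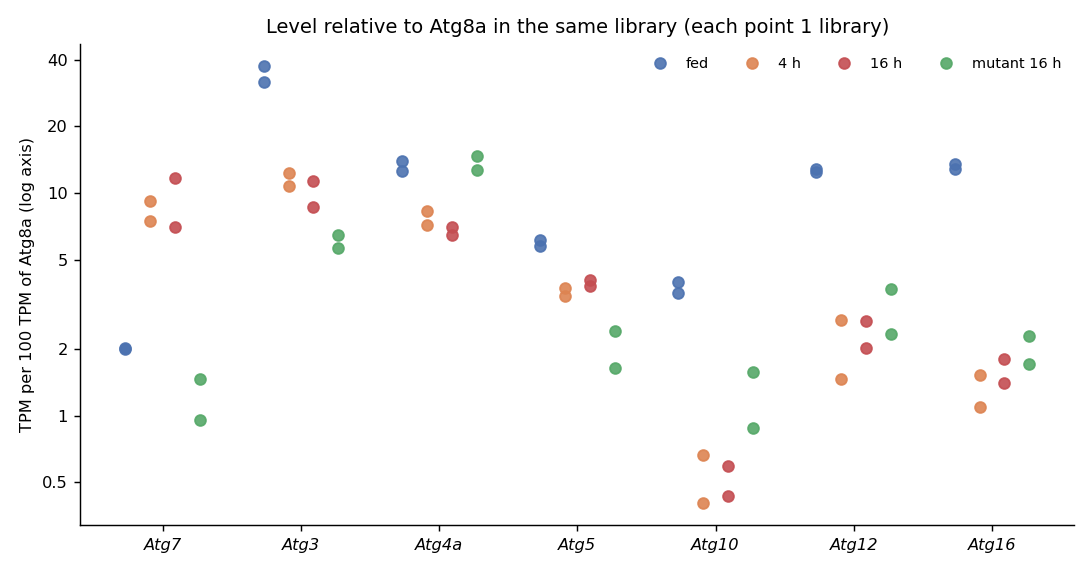
TPM of 7 genes per 100 TPM of Atg8a in the same library (log axis), each point 1 library, coloured by group. Atg7 is the gene whose ratio is higher in starved wild type (7.08 to 11.7) than in fed larvae (1.999 and 2.01), and the mutant points of Atg7, Atg3 and Atg5 are the lowest in their columns.

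Atg8a was the highest of the 10 genes in every group, with Atg3 second in wild type and Atg4a second in the mutant. In fed larvae Atg4a, Atg16 and Atg12 followed, at group means of 3.64, 3.61 and 3.47 scaled TPM, and the first overlapped with the second and the second with the third. Atg4b and Atg5 overlapped at 1.65 each. Atg7 was the lowest tested gene in fed larvae, below only Atg8a and Atg3 in both starved wild-type groups (16.0 and 14.8) and again the lowest tested gene in the mutant (1.71), where it overlapped with Atg10 (1.73). At 4 h its range overlapped with those of Atg3 and Atg4a, and after 16 h with that of Atg3. In the mutant Atg12, Atg5, Atg16 and Atg4b stood between 2.75 and 4.51, and each overlapped with the next.

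Atg8b (FBgn0038539; chromosome 3R, 17724410 to 17725063, minus strand), the second Atg8 of the fly and a gene known for its expression in the male germline, stood apart. It was listed at 0.862 and 0.0310 scaled TPM in fed larvae, 1.45 and 0 after 4 h, 4.06 and 0.365 after 16 h, and 0 and 0.0209 in the mutant. In each wild-type group library 1 stood above library 2, and the ranges of the wild-type groups overlapped. No test was run below the filter. Of 12 testis markers, 9 had the same 3 highest libraries as Atg8b, namely 16 h library 1, 4 h library 1 and fed library 1, and 6 had them in the same order. The testis marker betaTub85D, a tubulin of the male germline, stood at 2.54 and 0.06 in fed larvae, 3.23 and 0.01 after 4 h, 9.16 and 0.58 after 16 h, and 0.07 and 0.02 in the mutant. The 12 markers summed to 94.3 in 16 h library 1, 34.5 in 4 h library 1, 20.4 in fed library 1 and between 1.52 and 12.1 in the other 5. The part of testis RNA in the Atg8b values was not tested.

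Genes of the other steps of autophagy were also higher in starved wild type. Of 27 such genes, all tested, 21 rose and 1 fell after 4 h and 19 rose and 1 fell after 16 h, where 21.1% and 21.6% of all genes rose; without scaling, which lowers the median gene, the counts were 11 and 2, and 3 and 2. Atg1 complex genes that passed after 4 h were Atg1, the kinase that starts autophagy (1.63), and its partner Atg17 (1.19), while the partner Atg101 fell (-0.53), a call that held in 4 of 13 alternatives and was lost without any 1 of the fed or 4 h libraries (adjusted p 0.0750 to 0.238). Among the genes of the Vps34 lipid kinase complex, Uvrag (1.75), Atg6 (0.76) and Pi3K59F, the kinase itself (0.71), rose after 4 h; the last was lost without either fed library or 4 h library 2 (adjusted p 0.0524 to 0.0739). All 4 membrane growth genes rose, led by Atg18b (3.68), Atg18a (1.43), both lipid-binding proteins, and the membrane protein Atg9 (1.38). Of 14 cargo and fusion genes 11 rose, led by the cargo receptor gene ref(2)P (2.05), bchs (1.66) and Vamp7, a fusion factor (1.66). The rise of ref(2)P was lost without fed library 1 (0.0582), fed library 2 (0.0723) or 4 h library 2 (0.0617).

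In the mutant against wild type after 16 h, 3 of the 27 rose (Atg13, Atg17 and Pi3K59F) and 4 fell (Atg1, Atg101, Snap29 and Vamp7). Of all genes, 21.4% rose and 12.1% fell. The median of the 27 was -0.02, and that of all genes 0.09. Without scaling 11 rose and 1 fell, where the median gene lay at 0.77. None of the 27 rose without 16 h library 2 and 1 rose without 16 h library 1 or either fed library, while 1 fell without mutant library 1 and 2 fell without mutant library 2 or 16 h library 2. Atg101 stood at 4.997 and 3.599 scaled TPM in wild type and 0.99 and 0.80 in the mutant (-1.47, limma adjusted p = 0.0024), a fall that held under all 13 alternatives. Vamp7 stood at 30.3 and 28.1 in wild type and 11.8 and 14.7 in the mutant (-1.09, adjusted p = 0.0239), near its fed values of 9.93 and 12.1, and Snap29, its partner in fusion with the lysosome, at 10.9 and 9.94 against 4.70 and 5.01 (-0.96, adjusted p = 0.0102). The call of Vamp7 was lost without any 1 of the 4 libraries compared (adjusted p 0.0612 to 0.110) and that of Snap29 without mutant library 1 (0.0536). Without scaling these differences were -0.23 and -0.17. Atg13 passed in 7 and Atg1 in 5 of 13 alternatives. Against fed, 17 of the 27 were higher in the mutant and 1 was lower, Atg101 (-1.78), beside 23.0% and 22.4% of all genes. Without fed library 2 the first count was 10.

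Atg7, Atg3 and Atg10 belong to the wider class of enzymes that attach ubiquitin-like proteins. Of 14 genes of the other such systems (ubiquitin activation, SUMO, Nedd8, Ufm1 and Urm1), none rose after 4 h or after 16 h. Without scaling 7 fell after 4 h and 13 after 16 h, where the median gene lay at -0.53 and -0.82. With scaling 3 fell after 4 h and 6 after 16 h, where 26.6% and 27.7% of all genes fell. Without fed library 2 the counts were 1 and 3, and without fed library 1 the 16 h count was 2. Urm1, a ubiquitin-like protein that also serves as a sulphur carrier, fell after 4 h (-1.58). Uba2, of the SUMO activating enzyme, fell too (-0.57), a call that held in 4 of 13 alternatives. It was lost with no filter (limma adjusted p = 0.0724) and in the fit on the compared groups (0.0985). Leaving out any 1 library other than 4 h library 1 also lost it. At 16 h the falls were led by Urm1 (-1.23), Uba4, which activates Urm1 (-1.03), and Uba2 (-1.03); that of Urm1 was lost without fed library 1 (0.0749) or 16 h library 1 (0.0604). In the mutant against wild type after 16 h, 1 of the 14 rose and 3 fell, where 21.4% and 12.1% of all genes did. Urm1 rose (1.36) and lwr, the SUMO-conjugating enzyme (-0.80), Uba1, the ubiquitin-activating enzyme (-0.79), and Ufm1 (-0.68) fell. The rise of Urm1 was lost without 16 h library 1 (0.0640) or mutant library 2 (0.0742), and the fall of Uba1 without any 1 of the fed, 16 h or mutant libraries (0.0715 to 0.132). The falls of lwr and Uba1 turned to 0.04 and 0.08 without scaling, and the count of 3 was 1 without any 1 of the fed or 16 h libraries or mutant library 1. Over the 14 genes the medians were -0.22 after 4 h, -0.40 after 16 h and -0.15 in the mutant against wild type.

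**Figure D5:**
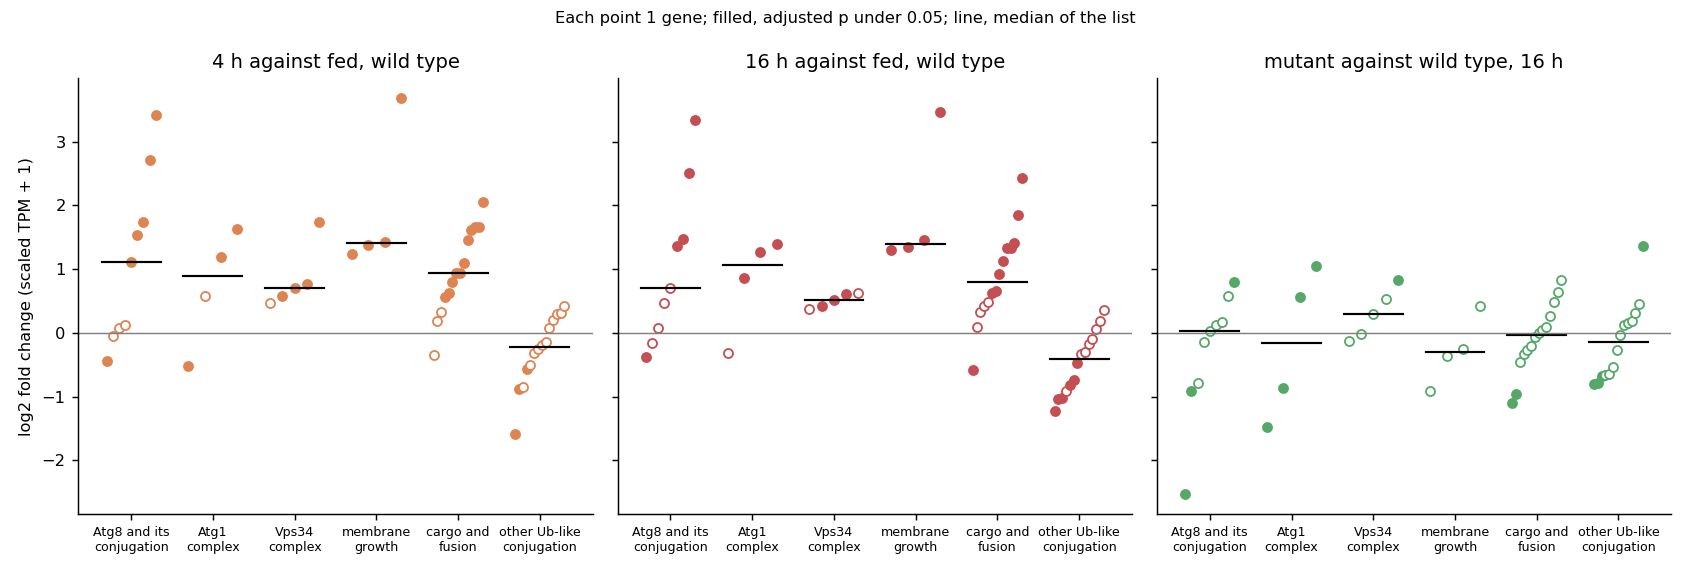
Log2 fold changes of scaled TPM + 1 (vertical axis), each point 1 gene, for Atg8 and its conjugation genes beside other autophagy groups and other ubiquitin-like (Ub-like) conjugation genes; filled points passed and lines are medians. At 16 h the medians are 0.70 for the Atg8 genes and -0.40 for the other conjugation genes.

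Genes of nutrient and ecdysone signalling, listed here as regulators, were measured in the same libraries. Of 10 tested, 6 rose after 4 h and 7 after 16 h, and none fell. Of all genes, 21.1% and 21.6% rose and 26.6% and 27.7% fell. Thor, a translation repressor and a target of FOXO, rose most (5.25 and 5.73), followed by 2 genes of the ecdysone response, br (2.97 and 3.27) and Eip74EF (2.52 and 2.86). In the mutant 5 of the 10 fell and none rose against wild type after 16 h, where 12.1% and 21.4% of all genes did. The falls were led by br (-3.53), Eip74EF (-2.71) and the ecdysone receptor gene EcR (-2.02), and Thor and foxo also fell. br stood at 0.70 and 0.58 scaled TPM in the mutant, below its fed values of 0.91 and 1.02, and Eip74EF at 1.10 and 1.13, near its fed values of 0.90 and 0.92. Without 16 h library 1 or mutant library 1 the count of 5 was 3. Thor, by contrast, stood at 34.2 and 80.9 in the mutant and 3.18 and 2.46 in fed larvae (3.82, limma adjusted p = 0.00165), and REPTOR, a factor repressed by TOR signalling, rose too (2.83, adjusted p = 0.000205). What these factors have to do with the levels of Atg8a or Atg7 was not tested.

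Among 3890 protein-coding genes with a mean of at least 5 scaled TPM, those with the profile nearest to Atg8a over the 8 libraries (the smallest Euclidean distance of centred log2 values) were the polyubiquitin gene Ubi-p5E, at a distance of 0.50, then prage (0.65), CG16721 (0.68), CG3164 (0.72) and CG3662 (0.72). Ubi-p5E stood at 26.1 and 29.1 scaled TPM in fed larvae and 131 to 217 in the 6 starved libraries; its repeats are near-identical to those of other polyubiquitin genes, so the level is uncertain. Among the conjugation genes in that pool, Atg4a ranked 105, Atg3 738 and Atg7 891 in nearness to Atg8a. The gene nearest to Atg7 was yellow-f (0.57), with 7.49 and 8.25 in fed larvae, 70.4 and 125.8 after 4 h, 97.4 and 79.4 after 16 h, and 10.1 and 12.4 in the mutant. The next 4 were tal-1A, tal-2A, tal-3A and tal-AA (0.72), which are open reading frames of 1 shared transcript with identical values. These distances rest on 8 libraries in 4 groups and were given no test.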

How the data were processed

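The authors deposited TPM per gene and per transcript, with 1 column per library and no pooling. The labels' protocols give Trizol extraction, a Bioanalyzer check and a stranded total RNA kit with Ribo-Zero Gold depletion. The submitters' processing notes name STAR 2.5.3 and build BDGP6. For the quantifier, the annotation release and the use of strand, the entry is: not given in the sources used here. TPM keeps no depth, so read depth is unknown and no counting interval was computed.

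Gene IDs were matched to the Ensembl BDGP6 annotation, which also gave coordinates and transcript models; all 10 genes matched directly. Each library's TPM values were then scaled with the median of its ratios to the other libraries, over 5393 genes at 1 TPM or more in all 8. The model, limma 3.58.1 in R 4.3.3 with a trend, estimated a mean for each group from log2(scaled TPM + 1) of 8332 genes, 2-sided, with 4 residual degrees of freedom. Isoform shares were tested as log2 ratios of 1 isoform to the others, 1 TPM added to each, for 5289 isoforms (mean share 5% to 95%, gene mean at least 5 TPM). Scripts were tested on simulated data. Alternatives were no scaling, rescaling over protein-coding genes, 0.1 added, no filter, a fit on the compared groups alone and leaving out each library; transcript levels were tested as an addition chosen after the data were seen.

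Named were all 10 genes, their transcripts with a mean share of 5% or more, up to 3 passing genes of each list with the largest change, the 5 nearest profiles of Atg8a and Atg7, and overlapping genes; any others were named after their values were seen. A gene that the rule names is not reported here. The genes and lists were chosen with earlier results of these data known. Of the lists, smt3, Tor and nos were not matched. Replicates were numbered in accession order.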

Additional observations from a re-analysis of the deposited data

How the results depend on the processing

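No paired analysis was possible because the labels carry no replicate numbers; the numbers used here follow accession order. TPM keeps no depth, so the read support of low genes (Atg7 in fed larvae, Atg8b, Atg10, the minor transcripts) is unknown. With 2 libraries a group, many calls changed when 1 library was left out. That step also lowers the residual degrees of freedom and changes the pooled spread, so a changed call need not mean that the library carried the difference. Atg4a in the mutant against wild type, for example, stayed at 0.80 without either fed library, which that comparison does not use, yet lost its call. The cause of the changes listed here was not tested.

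Without scaling, 2 of the 9 genes rose at 16 h against fed, where the median gene lay at -0.82. In the mutant against wild type 3 then rose and 1 fell, where the median gene lay at 0.77. Shares of all genes are given for the main setting only, so counts under alternatives have no such share beside them. The fall of Atg16 was lost (0 genes) at 4 h with no filter and in a fit on the compared groups alone, and at 16 h in both of these and with rescaling over protein-coding genes. The rise of Atg4a in the mutant was lost (0 genes) with 0.1 added, with no filter and in the fit on the compared groups. Leaving out 1 library gave 0 to 1 falls at 4 h and at 16 h, 0 to 1 rises in the mutant against wild type, and 2 to 4 rises in the mutant against fed. Of isoform shares at 4 h, 0 rose and 0 fell with 0.1 added, and 0 to 1 did so with 1 library left out; 1 rose at 16 h in genes with a mean of 1 TPM or more.

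Directions turned without scaling at 4 h for Atg12 (-0.45) and Atg4b (-0.29); at 16 h for Atg12 (-0.80), Atg3 (-0.36), Atg4b (-0.29), Atg13 (-0.0346), Pi3K59F (-0.0643), Vps15 (-0.18) and Atg6 (-0.38); and in the mutant against wild type for Atg3 (0.0425), Atg8a (0.75), lwr (0.0386) and Uba1 (0.0840). With rescaling over protein-coding genes they turned for Atg12 at 4 h (-0.37) and 16 h (-0.16) and Atg4b at 4 h (-0.24). With 0.1 added, the shares of Atg4a-RA and Atg4a-RB in the mutant against fed turned to -1.43 and 1.43. With 1 library left out, the ranges that crossed 0 were, at 4 h, Atg12 from -0.12 to 0.26, Atg4b from -0.0521 to 0.29 and Atg10 from -0.13 to 0.0233; at 16 h, Atg12 from -0.00392 to 0.17; in the mutant against wild type, Atg12 from -0.23 to 0.56 and Atg4b from -0.12 to 0.20; and in the mutant against fed, Atg12 from -0.14 to 0.64 and Atg3 from -0.31 to 0.12.

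Regulators that fell numbered 3 at 4 h without scaling or with rescaling. At 16 h, 2 fell without scaling, and 1 with rescaling or in the fit on the compared groups. In the mutant against wild type 3 rose without scaling, and 1 with rescaling or no filter. Calls of transcript levels, tested after the data were seen, were counted as pairs of 1 call and 1 alternative setting. In settings that keep all libraries the call was lost in 12 pairs and kept in 73. With 1 library left out it was lost in 35 pairs and kept in 101.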
